A study of Mus musculus with 4 samples.

Results

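The genes described here are those of the mouse major histocompatibility complex (MHC) and of antigen processing: every gene whose symbol starts with H2-, and B2m, Tap1, Tap2, Tapbp, Tapbpl, Cd74, Ciita, Nlrc5, Erap1, Ifi30, Rfx5, Rfxap and Rfxank. They were found by matching the accession of each probe to a symbol, which gave 47 genes with 58 probes, of 20971 genes named on the array. By role, 24 were class I heavy chain genes, 6 served class I assembly and loading, 11 belonged to the class II pathway, 5 were transcriptional regulators, and H2-Ke6, a hydroxysteroid dehydrogenase gene that lies in the complex, is no MHC molecule. Of the 47, 37 lie on chromosome 17, where the mouse complex is.

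RNA came from RAW 264.7, a macrophage-like line started from an Abelson virus tumour of a BALB/c mouse. The cells were left untreated or kept with Lactobacillus bulgaricus, a lactic acid bacterium of fermented milk, at 10 bacteria per cell (multiplicity of infection) for 1, 4 or 6 h, without antibiotics in the medium. Each of the 4 groups was 1 two-colour Agilent array of RNA pooled in equal amounts from 3 cultures, with the cells' RNA in Cy5 and, in Cy3, a common reference, by its label a pool of RNA of every group. With 1 array per group no test was possible. The rule used here calls a gene higher or lower if its log2 of Cy5 over Cy3 lay at least 1 (2-fold) away from the value on the untreated array. The SD between replicate spots of a probe was 0.13 for such a difference at each time, which measures the spots and leaves out how cultures vary. In such bulk RNA, fewer cells with a transcript and less of it per cell cannot be told apart.

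MHC class I molecules are a heavy chain bound to beta-2-microglobulin (B2m), and they show peptides of the cell's own proteins to CD8 T cells. The peptides are cut by the proteasome, carried into the endoplasmic reticulum by the transporter of Tap1 and Tap2, trimmed by Erap1 and loaded with the help of tapasin (Tapbp) and its relative Tapbpl. MHC class II molecules show peptides of ingested material to CD4 T cells; they travel with the invariant chain (Cd74), and H2-DM exchanges their peptides in endosomes under the control of H2-O. In macrophages class II genes are known to depend on Ciita, which interferon gamma induces, whereas Nlrc5 serves the class I genes; both act through RFX factors (Rfx5, Rfxap, Rfxank) and NF-Y at a shared promoter module, the X and Y boxes.

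That module can be read in the promoters themselves. RefSeq's promoter table (GRCm38.p6, from C57BL/6J mice; BALB/c carries another MHC haplotype) held 37 promoters of 34 of the genes, each 300 bases long, 250 before and 50 after the start. CCAAT, the core of the Y box, searched on both strands, stood in 31 of the 37, against 37.4% of 32851 promoters of all genes. The 6 without it were those of Erap1, H2-DMa (1 of its starts), H2-M5, H2-Q10, H2-T3 and Ifi30. TGANG, as in the X2 part of the X box, followed after 15 to 25 bases by ATTGG, which is CCAAT on the other strand, stood in 13 of 37 promoters, against 2.79% of all; this pair, which contains the first motif, was chosen after the promoters had been read. It stood in 6 of 20 class I heavy chain promoters, in that of B2m and in 6 of 10 class II promoters. The 2 promoters of H2-K1 overlap and are both among those with the pair, and the 2 of H2-M9 overlap too. Promoters of related genes, such as H2-M1 and H2-M9 or H2-DMb1 and H2-DMb2, also hold long stretches that are nearly the same. The 37 are thus not all separate sequences, and the counts above include such copies. A strict form of the interferon response core, GAAA repeated after any 2 bases, stood in 3 of 37, those of B2m, Erap1 and H2-T23, against 3.44% of all. Looser forms were not counted, so a promoter without a match may still hold a related element. The stretch tttcacttct, for example, stands in the promoters of H2-K1, H2-D1, H2-Q7 and H2-M3. Its tttc reads GAAA on the other strand, but the exact repeat is missing there. TTCNNNGAA, the form of a STAT site, stood in 3 of 37, against 8.30%. A match describes the letters and shows no binding. Below are the 150 bases before the start of 3 genes that the array measured in class I and class II (H2-K1, B2m, H2-Aa), a further measured class II gene (H2-Eb1), and 2 class II genes whose Cy5 signal was not well above background on any array (H2-Eb2, H2-Ob) and which also hold the pair. They were picked because they hold it: none of the 10 class I genes that were not above background in Cy5 holds it, and the measured class II pathway genes H2-DMa, H2-Oa and Ifi30 lack it. No promoter was held for the measured class II pathway genes H2-Ab1 and Cd74, or for the class I genes H2-Q5 and H2-T24. Capitals mark CCAAT or ATTGG and the TGANG that comes before ATTGG. They lie at chr17:34000334-34000483 (minus strand), chr2:122147537-122147686 (plus), chr17:34287824-34287973 (minus), chr17:34305717-34305866 (plus), chr17:34325525-34325674 (plus) and chr17:34238755-34238904 (plus), and each is written in the direction of transcription.
H2-K1: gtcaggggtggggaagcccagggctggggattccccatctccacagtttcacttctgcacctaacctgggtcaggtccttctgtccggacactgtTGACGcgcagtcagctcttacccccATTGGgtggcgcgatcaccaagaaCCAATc
B2m: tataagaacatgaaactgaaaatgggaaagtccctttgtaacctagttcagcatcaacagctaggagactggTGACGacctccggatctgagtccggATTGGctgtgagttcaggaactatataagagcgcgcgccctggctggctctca
H2-Aa: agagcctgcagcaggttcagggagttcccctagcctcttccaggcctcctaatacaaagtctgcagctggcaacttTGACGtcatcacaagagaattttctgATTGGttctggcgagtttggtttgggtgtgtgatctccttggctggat
H2-Eb1: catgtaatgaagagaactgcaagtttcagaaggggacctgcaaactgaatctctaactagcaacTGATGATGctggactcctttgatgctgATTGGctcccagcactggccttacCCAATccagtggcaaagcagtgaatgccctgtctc
H2-Eb2: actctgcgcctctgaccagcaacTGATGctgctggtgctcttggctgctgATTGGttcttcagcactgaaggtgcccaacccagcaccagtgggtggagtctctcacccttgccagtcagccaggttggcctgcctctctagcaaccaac
H2-Ob: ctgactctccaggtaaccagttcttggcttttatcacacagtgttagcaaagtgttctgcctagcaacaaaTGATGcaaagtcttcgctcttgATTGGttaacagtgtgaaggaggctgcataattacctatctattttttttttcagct

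All 4 arrays lay on 1 slide in the order untreated, 1 h, 4 h and 6 h, so the effect of position cannot be told apart from that of time. The Cy5 channel was well above background at 49.5% to 51.8% of the spots of an array and Cy3 at 43.5% to 45.4%. Of the macrophage markers, the 5 of 6 on the array (Lyz2, Csf1r, Adgre1, Itgam and Fcgr1) were well above background in both channels on every array, except Fcgr1 in Cy5 at 6 h, and their summed Cy5 signal was 17027 to 20415. Of the B cell markers, Cd79b was above background in Cy5 on all 4 arrays and Cr2 on 2, while Cd79a, Ms4a1 and Pax5 were not on any. Of 6 dendritic cell markers, 2 were above background in Cy5 on every array, Itgax with signals of 60.3 to 82.3 and Zbtb46 with 18.9 to 28.3, and Flt3, Xcr1, Ccr7 and Clec9a were not so in either channel on any array. Of 5 T cell markers, 3 or 4 were above background in Cy5, with sums of 172 to 257. Markers of intestinal epithelium were above background in Cy5 for 9, 9, 9 and 8 of 9 genes, with sums of 3034, 7095, 4609 and 3095 in untreated cells and at 1, 4 and 6 h, and their Cy3 sums were 16785, 12964, 12416 and 11718. Reg3b, with Cy5 of 76.3 in untreated cells and 1908 at 1 h, and Reg3g, with 249 and 2033, carried most of the higher sum at 1 h. Of 5 stromal and endothelial markers 3 were above background in Cy5 on each array, with sums of 930, 1558, 2410 and 2130. These markers moved between arrays in both channels, and their part in the values below was not tested.

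Of the 47 genes, 29 were measured, meaning that Cy5 and Cy3 both stood well above background on each of the arrays compared, and the same 29 were measured at all 3 times. These were 12 of 24 class I heavy chain genes, 6 of 6 loading genes, 8 of 11 class II pathway genes, 2 of 5 regulators and H2-Ke6. Another 14 were not well above background in Cy5 on any array: 10 class I genes (H2-M1, H2-M10.1, H2-M10.2, H2-M10.3, H2-M10.4, H2-M10.6, H2-M11, H2-M5, H2-M9 and H2-T3), the class II pathway genes H2-DMb2, H2-Eb2 and H2-Ob, and Ciita. The H2-M10 genes and H2-M1 are known from the vomeronasal organ. Rfx5 and Rfxap lacked a measurable reference, and the spots of H2-D1 and of H2-K2 were marked as outliers on the untreated array. Many class I heavy chain genes are close copies of each other, so a probe named for one may carry signal of others; the identity of the probes was not tested here, and values of single class I members are uncertain.

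No member was higher or lower by 2-fold at 1 h or at 4 h, and 1 was lower at 6 h. At 1 h the count was 0 of 29, where 0.376% of 10369 measured genes passed (0.328% higher and 0.0482% lower). At 4 h it was 0 of 29, where 0.455% of 10339 passed (0.242% higher and 0.213% lower), and at 6 h it was 1 of 29, where 0.921% of 10311 passed (0.456% higher and 0.466% lower). These shares are so low that fewer than 1 of 29 members would pass at the background rate, so the counts do not set the members apart from other genes. A 1.5-fold rule gave 0, 1 and 2 members, all lower, against 1.76%, 2.75% and 5.41% of all genes in either direction and 0.463%, 1.4% and 3.38% lower. Counting differences more than 2 spot SDs away from the median of all genes, 1, 7 and 5 of 29 members passed at 1, 4 and 6 h, or 3.45%, 24.1% and 17.2% of them, where 8.68%, 19.2% and 29.2% of all genes did. The median difference over the members was 0.05, -0.03 and -0.03 at the 3 times, and that over all genes 0.06, 0.00 and -0.01. The 29 measured members lay between -0.23 and 0.30 at 1 h, between -0.71 and 0.55 at 4 h and between -1.05 and 0.25 at 6 h.

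**Figure D1:**
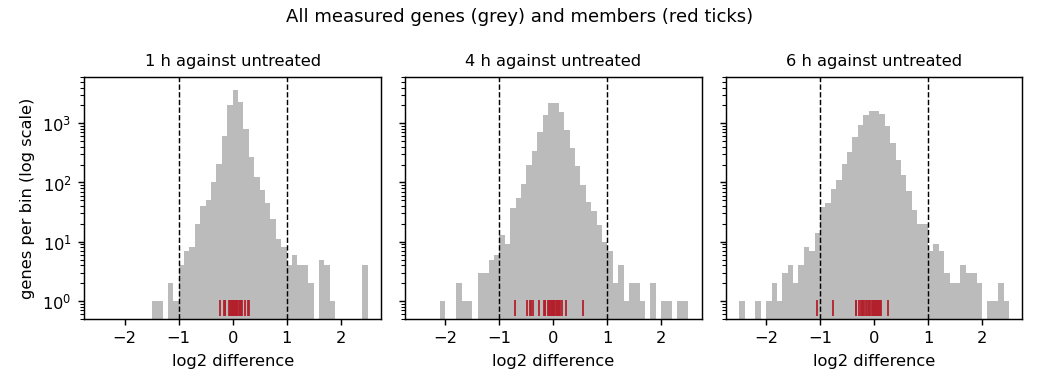
Log2 difference from the untreated array (horizontal axis) for all measured genes, as a histogram on a log scale in grey with values beyond 2.5 drawn in the outermost bins, and for the 29 measured members as red ticks; dashed lines mark 2-fold. The ticks lie inside the lines at 1 h and 4 h, and 1 tick, H2-Q5 at -1.05, lies outside at 6 h.

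**Figure D2:**
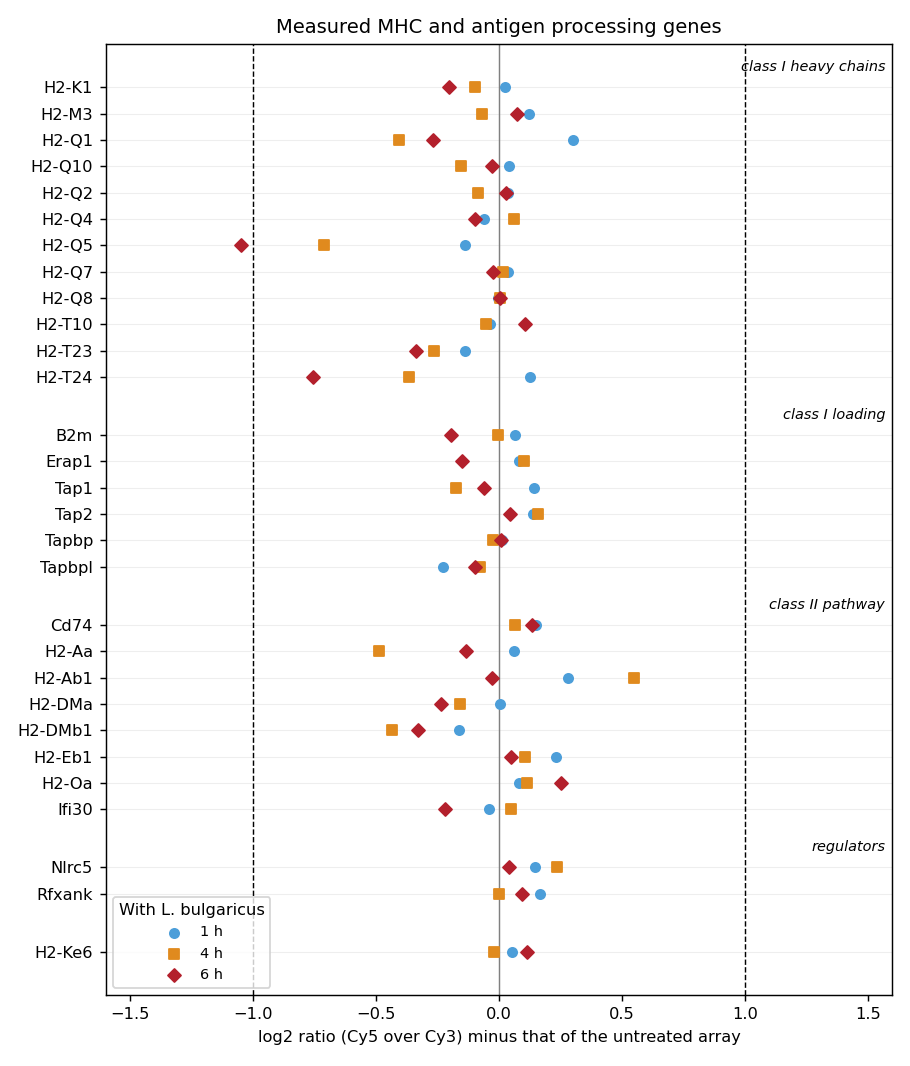
Log2 difference from the untreated array at 1 h (circles), 4 h (squares) and 6 h (diamonds) for each measured member, grouped by role, with dashed lines at 2-fold. Most points lie close to 0; the lowest at 4 h is H2-Q5 at -0.71, and the lowest at 6 h are H2-Q5 at -1.05 and H2-T24 at -0.76.

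The class I heavy chain genes had a median difference of 0.03 at 1 h, -0.09 at 4 h and -0.06 at 6 h, with 7, 3 and 4 of 12 above 0. H2-K1 is the classical heavy chain with the most spots on the array, 10 of 1 probe plus 1 of another. Over the replicate spots its log2 ratio was -0.02 ± 0.10 (SD, n = 10 spots) on the untreated array, 0.01 ± 0.08 (n = 9) at 1 h, -0.01 ± 0.09 (n = 10) at 4 h and -0.20 ± 0.05 (n = 10) at 6 h. The spots at 6 h ran from -0.26 to -0.13 and those of the untreated array from -0.24 to 0.11, so they overlapped, and spots of 1 array are not replicates of the treatment. With both probes the difference of H2-K1 was 0.02, -0.10 and -0.20 at 1, 4 and 6 h. At 4 h the probe with 10 spots stood at 0.01 and the probe with 1 spot at -0.21, so the probes differed in sign. The other classical gene, H2-D1, had 1 spot, marked as an outlier on all 4 arrays. Its Cy5 signal was 29308, 33555, 31433 and 33559, its Cy3 signal 30526, 35476, 33235 and 36924, and its log2 ratio with the mark ignored 0.20, 0.18, 0.26 and 0.19, with no array apart from the others. H2-L is not analysed here. H2-K2, annotated as a transcribed pseudogene, had Cy5 signals of 23982 to 36122 at 1 probe and 31288 to 38197 at the other.

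Among the nonclassical heavy chain genes H2-Q5, which RefSeq annotates as a transcribed pseudogene, was the member past the rule. Its processed Cy5 signal (background-subtracted and dye-normalized by the scanner software) was 855 in untreated cells and 951, 639 and 483 at 1, 4 and 6 h, while its Cy3 signal was 641, 913, 855 and 877. Cy5 was lowest at 6 h, and Cy3 was lowest on the untreated array. The log2 ratio was 0.30, 0.16, -0.41 and -0.75, which gives differences of -0.14, -0.71 and -1.05, or 2.07-fold lower at 6 h. In single channels, normalized across arrays, Cy5 moved by -0.54 at 6 h, so the Cy5 channel alone did not pass the rule. The reference, by its label a common pool, moved by 0.51.

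H2-T24, a nonclassical gene of the T region, had 2 probes whose Cy5 signals were 279, 425, 228 and 172 at the first and 485, 509, 300 and 165 at the second, in the order untreated, 1 h, 4 h and 6 h. Both were highest at 1 h and lowest at 6 h. The Cy3 signals were 141, 233, 212 and 267 at the first probe and 308, 307, 292 and 245 at the second. The differences in log2 ratio were 0.09, -0.34 and -0.78 at the first and 0.16, -0.39 and -0.73 at the second, with a mean of 0.13, -0.37 and -0.76, which did not pass the rule. The background correction adds an offset of 50 to each signal; with an offset of 0 the mean at 6 h was -0.96, not past the rule, and from the scanner's processed signals it was -1.42, past it. Over all the alternatives run, H2-T24 and H2-Q5 stood below 0 at both 4 h and 6 h, H2-T24 between -0.27 and -0.75 at 4 h and between -0.57 and -1.42 at 6 h.

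H2-T23 encodes Qa-1, a nonclassical heavy chain that is a ligand of the CD94/NKG2 receptors of natural killer cells. Its Cy5 signal was 24816, 24199, 22881 and 19980 and its Cy3 signal 19424, 19736, 20373 and 19136, with differences of -0.14, -0.26 and -0.34, none past the rule. The Cy5 signal was highest in untreated cells and lowest at 6 h, while the reference stayed within a narrower range. H2-Q1 was far dimmer in the cells than in the reference, with Cy5 of 30.4, 37.4, 26.7 and 28.8 against Cy3 of 154, 141, 141 and 136. Its differences of 0.30, -0.41 and -0.27 rest on signals near background and moved with the processing. With an offset of 0 they were 0.42, -1.13 and -0.98, past the rule at 4 h, and from the processed signals 0.43, -0.06 and 0.11.

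In other class I genes both channels moved together and the ratio did not. H2-Q4 had Cy5 signals of 6195, 4233, 3671 and 2434 and Cy3 signals of 5388, 3757, 2974 and 2194, so both were lowest at 6 h. Cy5 alone moved by -1.26 and the reference by -1.16 at 6 h, and the difference of the ratio was -0.10. By Cy5 alone, H2-Q4 was the 1 member of 29 lower at 6 h, where 2.1% of all genes were; by Cy3 alone it was again the 1 member, where 1.41% were. H2-M3, which presents formylated peptides of bacteria, had Cy5 signals of 647, 584, 412 and 335 and Cy3 signals of 644, 608, 427 and 316, with ratio differences of 0.12, -0.07 and 0.07. Both channels were lowest at 6 h.

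The remaining class I genes differed little in the ratio. H2-Q2, H2-Q7 (Qa-2), H2-Q8, H2-Q10, known as a secreted form from the liver, and H2-T10, annotated as a transcribed pseudogene, had differences from -0.15 to 0.11 over the 3 times. H2-Q7 had Cy5 signals of 26036, 33547, 26740 and 26810, with differences of 0.04, 0.02 and -0.03, and H2-Q8 had 8920, 9917, 9897 and 8982, with -0.01, 0.00 and 0.00. The second probe of H2-Q10 was not above background on any array, whereas the first read 812 to 909 in Cy5. H2-Q2 rested on 1 probe at 6 h, because a spot of the other was marked as an outlier there.

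**Figure D3:**
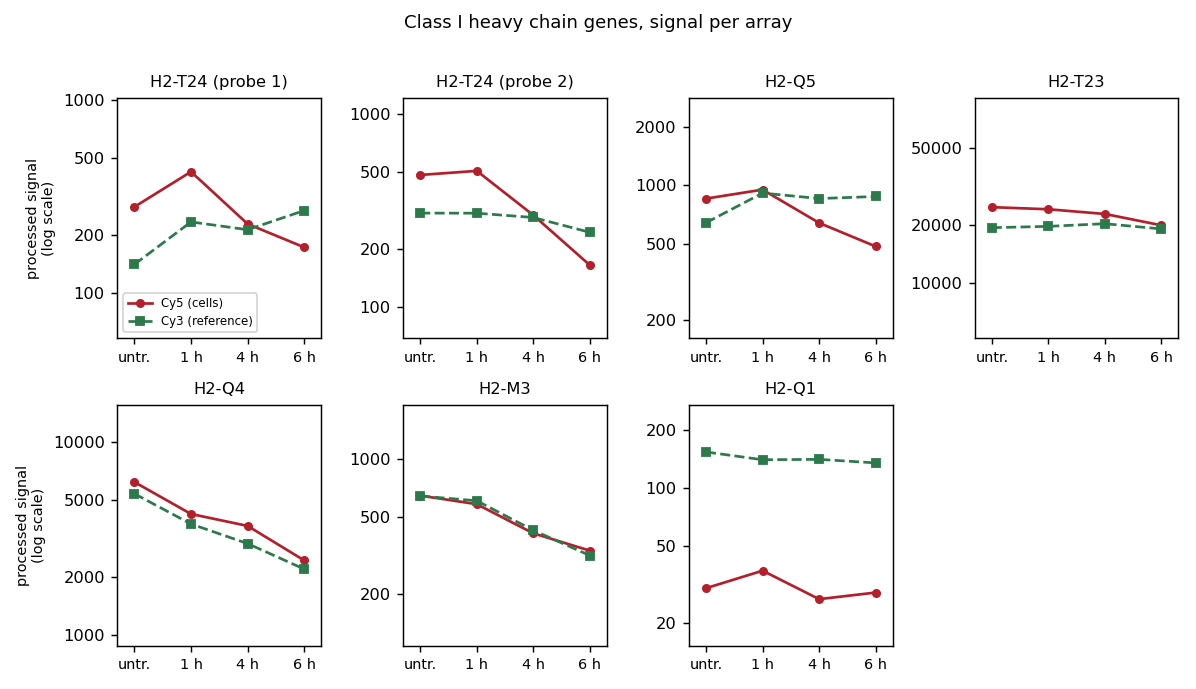
Processed signal (log axis) of class I heavy chain genes by time on the 4 arrays, in Cy5 (cells, red circles) and Cy3 (reference, green squares), 1 panel per probe and 1 array per point. In H2-T24 and H2-Q5 the Cy5 line crosses below the Cy3 line by 6 h, in H2-Q4 and H2-M3 both lines go down together, and in H2-Q1 Cy5 lies below Cy3 on every array.

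The genes of class I assembly and loading had median differences of 0.07, -0.01 and -0.08 at 1, 4 and 6 h, none of the 6 genes passing the rule, and a range from -0.23 to 0.16 over all times. B2m, the light chain of every class I molecule, had Cy5 signals of 15875, 14784, 12755 and 13255 and Cy3 signals of 15594, 13866, 12630 and 14856, with differences of 0.07, 0.00 and -0.19. The signals of cells and reference lay close to each other on each array. Tap1, one chain of the peptide transporter, was printed in 10 spots, whose log2 ratio was 0.32 ± 0.11 (SD, n = 9 spots) in untreated cells, 0.47 ± 0.05 (n = 10) at 1 h, 0.15 ± 0.09 (n = 10) at 4 h and 0.26 ± 0.07 (n = 10) at 6 h. Its Cy5 signal was 456 ± 77.4 on the untreated array, 564 ± 59.4 at 1 h, 397 ± 30.5 at 4 h and 441 ± 23.3 at 6 h. The spots at 1 h ran from 0.40 to 0.56 and those at 4 h from 0.01 to 0.30, with no overlap. Those of the untreated array, from 0.17 to 0.48, overlapped both. The 1 h and 4 h arrays had the highest and lowest means, and spots of 1 array are not replicates of the treatment. How often the spots of other probes fail to overlap was not counted.

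**Figure D4:**
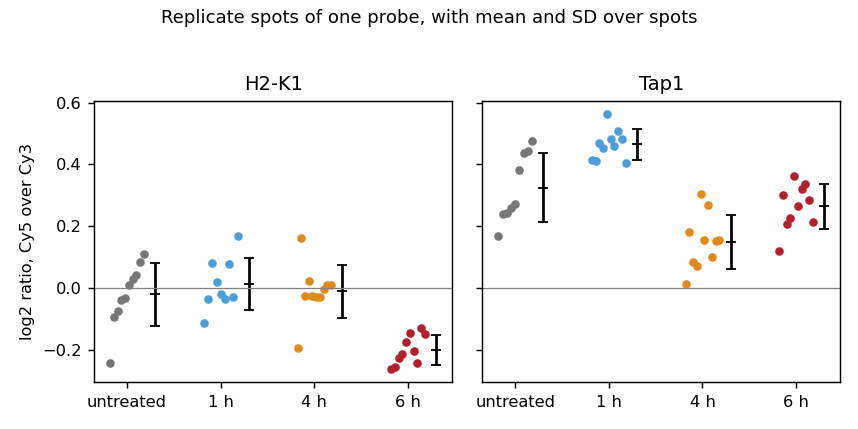
Log2 ratio of Cy5 over Cy3 at each replicate spot of 1 probe of H2-K1 (left) and Tap1 (right) on each array, with the mean and SD over spots in black. H2-K1 is lowest at 6 h, at -0.20 ± 0.05, and Tap1 is highest at 1 h, at 0.47 ± 0.05, and lowest at 4 h, at 0.15 ± 0.09; the spread is that of spots on 1 array.

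The other chain of the transporter, Tap2, had Cy5 signals of 6394, 7831, 7993 and 7637 and differences of 0.14, 0.16 and 0.04. Tapbp, which bridges the transporter and the empty class I molecule, had Cy5 signals of 4997, 5280, 4621 and 5237 and differences of 0.01, -0.03 and 0.01, the smallest range among the loading genes. Erap1, the trimming peptidase of the endoplasmic reticulum, had Cy5 signals of 166, 163, 118 and 78.2 against Cy3 of 138, 137, 114 and 104, with differences of 0.08, 0.10 and -0.15; Cy5 was lowest at 6 h, and from processed signals the difference there was -0.68. Tapbpl, a peptide editor, had Cy5 signals of 467, 652, 772 and 705 and Cy3 signals of 292, 599, 587 and 544. Both channels were lowest on the untreated array, and the ratio differed by -0.23, -0.08 and -0.10, or by -0.56, -0.29 and -0.31 from the processed signals. Cy5 by itself was higher by 0.49, 0.78 and 0.66, so the sign depends on the reference.

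The class II pathway genes had median differences of 0.07, 0.06 and -0.08, of which 6, 5 and 3 of 8 values were above 0 and none passed the rule. H2-Aa, the alpha chain of I-A, had Cy5 signals of 212, 292, 92.2 and 226 and Cy3 signals of 154, 204, 153 and 173. The 4 h array alone was low in Cy5, and the differences were 0.06, -0.49 and -0.13; from the processed signals that at 4 h was -1.19, past the rule. H2-Ab1, the beta chain that pairs with it, had differences of 0.28, 0.55 and -0.03 as a mean of 2 probes. The first probe read 1055, 1279, 1081 and 873 in Cy5 and the second 813, 711, 1166 and 469. The second was highest at 4 h and the first at 1 h, so the probes disagreed on the time course, with differences at 4 h of 0.30 and 0.80 and at 6 h of 0.19 and -0.25. The I-A chains thus stood on opposite sides of 0 at 4 h.

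H2-Eb1, the beta chain of I-E, had Cy5 signals of 993, 929, 783 and 597 and Cy3 signals of 1486, 1220, 1079 and 863. Both channels were lowest at 6 h, and the differences of the ratio were 0.23, 0.10 and 0.05. Cd74, the invariant chain, had Cy5 signals of 15887, 18669, 17692 and 19740 and Cy3 signals of 14114, 14521, 15077 and 16117, with differences of 0.15, 0.06 and 0.14. It was lowest in untreated cells in both channels. Ifi30, a thiol reductase of endosomes that serves class II antigens, had Cy5 signals of 26889, 30876, 30712 and 29392 and differences of -0.04, 0.05 and -0.22.

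Of the peptide exchange factors and their inhibitor, none passed the rule. H2-DMb1 at 4 h and 6 h and H2-Oa at 6 h lay beyond 2 spot SDs. So did 19.2% of all genes at 4 h and 29.2% at 6 h, so this does not set these genes apart. H2-DMa had Cy5 signals of 1133, 1610, 1324 and 1234, with differences of 0.00, -0.16 and -0.24. Its partner H2-DMb1 had Cy5 signals of 216, 399, 299 and 282 and Cy3 signals of 191, 476, 405 and 357, with differences of -0.16, -0.44 and -0.33. For H2-DMb1 the untreated array was lowest in both channels, Cy5 by itself being higher by 0.66, 0.46 and 0.38 and the reference by 0.82, 0.89 and 0.71, so the sign of its difference depends on the reference. H2-Oa, the alpha chain of the inhibitor H2-O, had Cy5 signals of 282, 335, 322 and 362, lowest in untreated cells and highest at 6 h, with differences of 0.08, 0.12 and 0.25. The second DM beta gene, H2-DMb2, and the beta chain of H2-O, H2-Ob, were not well above background in either channel, with Cy5 signals of 5.58 to 13.2 for H2-DMb2 and 5.91 to 17.9 over the 2 probes of H2-Ob. Their alpha partners were thus measured where these beta genes were not, and H2-Eb2, a further class II beta gene, read 4.41 to 5.05.

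**Figure D5:**
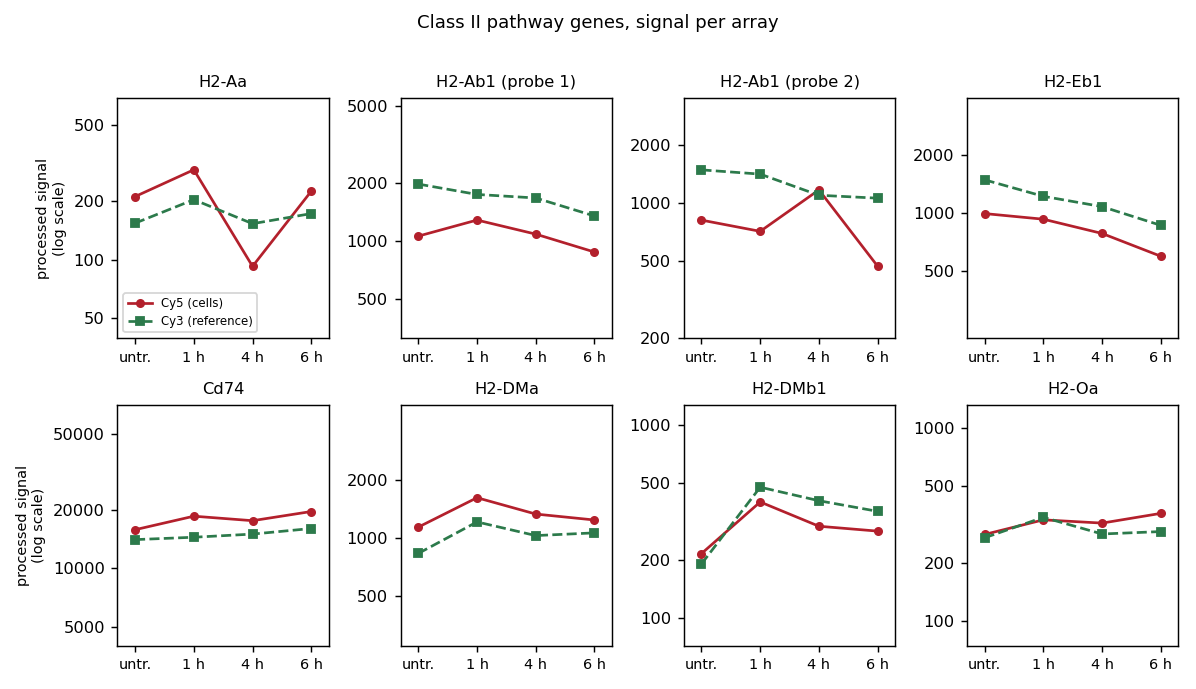
Processed signal (log axis) of class II pathway genes on the 4 arrays, in Cy5 (cells, red circles) and Cy3 (reference, green squares), 1 panel per probe and 1 array per point. H2-Aa dips in Cy5 at 4 h, the 2 probes of H2-Ab1 peak at different times, and in H2-Eb1 Cy5 lies below Cy3 on every array.

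Of the regulators, Ciita, the coactivator of class II genes, was not well above background in Cy5 on any array, at 4.27, 15.9, 4.17 and 11.0, while it was so in Cy3 on all 4, at 41.2, 63.0, 41.6 and 56.5. Nlrc5, its class I counterpart, had differences of 0.15, 0.23 and 0.04 as a mean of 2 probes that disagreed. The Cy5 signal of the first was 212, 245, 179 and 108, lowest at 6 h, and that of the second 106, 137, 178 and 188, highest at 6 h; their differences at 6 h were -0.24 and 0.32. Rfxank had Cy5 signals of 796, 971, 846 and 928 and differences of 0.16, 0.00 and 0.09. Rfxap, with Cy5 of 36.7, 35.2, 47.2 and 27.6, and Rfx5, with 68.5, 50.7, 32.6 and 32.0 at 1 probe and 30.4, 33.7, 23.4 and 24.9 at the other, had no usable ratio, so no difference is given for them. H2-Ke6 had differences of 0.05, -0.02 and 0.11.

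The cells and the reference could also be set against each other on each array. Of the 29 measured members, 16 lay above the reference on all 4 arrays and 4 lay below it, where 25.8% and 18.6% of 10110 genes measured on all arrays did. The 4 below were H2-Q1, H2-Ab1, H2-Eb1 and Tap2. For H2-Q1 the log2 ratio was -0.71, -0.41, -1.12 and -0.98, for H2-Ab1 -0.77, -0.49, -0.22 and -0.80, for H2-Eb1 -0.43, -0.20, -0.32 and -0.38 and for Tap2 -0.20, -0.06, -0.04 and -0.16. By its label the reference is a pool of the groups, whose level would lie between their lowest and highest. The ratios of these 4 members do not bracket 0, and neither do those of the 16 above the reference. The same holds for the 25.8% and 18.6% of all genes given above, so ratios that do not bracket 0 are not particular to the members. The share above the reference, 16 of 29, was nevertheless larger than the 25.8% of all genes. The share below, 4 of 29, was smaller than the 18.6%. Class I probes may share signal, so the 16 are not separate counts. The reason was not tested. Cd74 lay above the reference, at 0.17, 0.32, 0.23 and 0.30. The markers of intestinal epithelium were likewise brighter in Cy3 than in Cy5 on each array in sum, as given above, and their part in these ratios was not tested.

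Other genes of the same pathways, taken from lists that hold no member, gave 0 genes past the rule at any time. The immunoproteasome and its activator, which cut class I peptides, had medians of -0.02, -0.04 and -0.12, over 4, 4 and 3 of 5 genes measured. Psmb9, an inducible proteasome subunit whose gene is the neighbour of Tap1, had differences of -0.51, -0.54 and -0.60, with Cy5 by itself higher by 0.17, 0.53 and 0.40 and the reference by 0.68, 1.06 and 1.00. Folding partners in the endoplasmic reticulum had medians of -0.01, -0.29 and -0.46 over 3, 3 and 4 of 5 genes, which were not the same genes at each time. Hspa5 stood at -0.12, -0.46 and -0.57, and of the class I chaperones Calr stood at -0.29 and -0.57 at 4 h and 6 h, with no value at 1 h, and Canx at -0.01, -0.05 and 0.02. Pdia3 stood at 0.06 at 1 h and -0.35 at 6 h, with no value at 4 h. The endosomal proteases that prepare class II peptides had medians of -0.04, 0.02 and -0.12 over 4 of 5 genes; Ctss, which cleaves the invariant chain, stood at -0.05, 0.07 and -0.18.

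In interferon gamma signalling, which induces MHC genes, the medians were 0.06, 0.02 and 0.02 over 8 of 9 genes, with Ifngr1 at 0.34, -0.05 and -0.02, the feedback inhibitor Socs1 at -0.06, -0.11 and -0.39 and Irf8 at 0.03, -0.43 and -0.27. NF-Y subunits lay between -0.13 and 0.12 over all times, with 3 of 4 genes of the NF-Y and CREB list measured. Of the genes that govern class II turnover at the surface, Cd83, which shields class II from the ligase of Marchf1, stood at 0.92 at 1 h and then at 0.21 and 0.10, Marchf1 at 0.17, 0.14 and 0.12 and Marchf8 at -0.46, -0.37 and -0.47. The processed signals of Cd83 were 436 in untreated cells and 977 at 1 h in Cy5, and 698 and 758 in Cy3. At 6 h Marchf1 differed by 1.09 in Cy5 alone and by 0.98 in the reference. Marchf8 was higher by 0.36, 0.47 and 0.27 in Cy5 alone, so the sign of its difference depends on the reference. Among MHC-like molecules encoded outside the complex, with medians of 0.06, 0.03 and -0.09 over 5 of 7 genes, Mr1, which presents vitamin B metabolites of bacteria, stood at 0.07, 0.47 and 0.63. In single channels, Cy5 differed by -0.03, 0.38 and 0.52 and the reference by -0.10, -0.09 and -0.11.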

How the data were processed

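Images were quantified by Agilent Feature Extraction, version 10.5.1.1, per the submitters' processing notes. The deposited files hold intensity values per spot (medians of spot and local background), signals already corrected and dye-normalized by that software, and log10 of Cy5 over Cy3. The series table deposited by the authors has these log10 values again, within 0.005 at every feature. Other steps of the authors are not given in the sources used here.

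Median intensities were corrected with normexp (offset 50; limma 3.58.1, R 4.3.3) and normalized by loess within each array, with control and outlier spots at weight 0. Spots marked as outliers (1.55% to 1.84% per array) were left out. Spots of a probe were averaged (well above background if at least 50% of them were), then measured probes of a gene. Single-channel changes are after Aquantile normalization. Accessions, without versions, matched a RefSeq GRCm38.p6 table for 27655 of 39429 probes; the array was annotated on mm9, so array coordinates are not given. The steps were tested on simulated data. The members, lists and the named-gene rule (the listed genes, main H2- genes and every measured member; up to 4 genes of other lists) were chosen with earlier results of these data known. A withheld marker gene is not reported here.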

Additional observations from a re-analysis of the deposited data

How the results depend on the processing

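The 1 array per group limits every value, and no array could be left out. No paired analysis was possible because each group had 1 array. Median centring in place of loess moved the median of all genes at 1 h to 0.86 and put 12 members and 29.2% of all genes past the rule there, with medians of 0.88 for class I heavy chains, 0.93 for class I loading and 0.95 for the class II pathway; at 6 h it gave -0.24 for class I heavy chains and -0.22 for the class II pathway, where all genes had -0.15. At 4 h, 1 of 29 members was lower with offset 0 (H2-Q1; 0.793% of all genes passed in either direction), with processed signals (H2-Aa; 2.35%), with the deposited ratio (H2-Aa; 2.36%) and with a 1.5-fold rule (H2-Q5; 2.75%). At 6 h, 2 of 29 (H2-Q5 and H2-T24) were lower with processed signals and with the deposited ratio (4.11% each) and with a 1.5-fold rule (5.41%). In Cy5 alone the class I heavy chains had medians of -0.23 at 4 h and -0.28 at 6 h, where all genes had 0.05 and 0.04. The other 96 of 111 values of these counts and medians stayed within 1.5 times or 1 spot SD. The filters on dim probes, the brightest probe and keeping marked spots moved none of them. The offset shrinks differences of dim members such as H2-T24, H2-Aa and Erap1.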
